A study of Danio rerio with 18 samples.

Results

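The insulin-like growth factor (IGF) axis of the liver was followed through 10 genes in 18 RNA-seq libraries of zebrafish larval liver. They comprise 3 ligands (igf1, igf2a, igf2b), the acid-labile subunit igfals, 4 IGF binding proteins (igfbp1a, igfbp1b, igfbp2a, igfbp2b) and both growth hormone receptors (ghra, ghrb). The set is a list of names drawn up with earlier results of these data known, and every gene ID carrying one of the names, with or without its last letter, was kept. This gave 10 gene IDs of 32105 in the count tables. Of these, 9 passed the filter on low counts and were tested among 17048 genes, and igf1 did not pass.

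In vertebrates, pituitary growth hormone acts on the liver through its receptor, JAK2 and STAT5, and drives hepatic transcription of IGF ligand and acid-labile subunit genes. Circulating IGFs travel bound to binding proteins, and in mammals the acid-labile subunit joins an IGF and a binding protein in a long-lived ternary complex. IGFBP1 responds quickly to fasting, insulin, hypoxia and amino acid stress, and in zebrafish Igfbp1a and Igfbp1b are known to restrain IGF signalling and growth under low oxygen.

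All larvae came from incrosses of fish carrying the uhrf1-hi272 allele in the strain labelled ABNYU, and all carried Tg(fabp10a:CAAX-EGFP), which marks hepatocyte membranes through a hepatocyte promoter. uhrf1 encodes a protein needed to maintain DNA methylation through cell division. Control larvae, called siblings or wild type by the submitters, and uhrf1-hi272-/- mutants received 0.5% DMSO alone or 20 µM palbociclib, which blocks the cell cycle kinases CDK4 and CDK6, in the same 0.5% DMSO. Treatment ran from 48 to 120 hours post fertilization (hpf), when livers were dissected, genotyped from the carcass and pooled by genotype, so each library is a pool. There were 4 control and 5 mutant libraries in DMSO, and 4 control and 5 mutant libraries in palbociclib. Whether replicate pools stem from different matings is not given in the sources used here, and p-values therefore refer to pool-to-pool spread, which may be technical.

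The libraries held 2467926 to 5199301 counts. uhrf1 itself was at 37.8 ± 7.5 CPM (the count relative to the library's TMM-scaled total, SD, n = 4) in DMSO controls and 46.5 ± 7.55 CPM (n = 5) in DMSO mutants, and did not pass the test (edgeR's quasi-likelihood test, adjusted p = 0.223). In palbociclib it was at 48.3 ± 7.75 CPM (n = 4) in controls and 41 ± 6.82 CPM (n = 5) in mutants (edgeR adjusted p = 0.721), so transcript level gives no check of the genotype labels. Hepatocyte markers were present in every group, with counts on all 25 marker IDs. Their summed share of counts was 5.09% to 6.55% in DMSO controls, 2.42% to 3.56% in DMSO mutants, 3.02% to 5.14% in palbociclib controls and 3.41% to 4.55% in palbociclib mutants. Skeletal muscle markers (20 IDs, all with counts) took 2.18% to 3.73%, 3.42% to 4.92%, 3.25% to 4.86% and 4.06% to 4.8% in the same order. In pooled tissue, fewer hepatocytes and less RNA per hepatocyte cannot be told apart. A share of counts also falls where other tissue, such as muscle, takes more of the counts, and the part of this was not tested.

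In DMSO, 7 of the 9 tested IGF axis genes fell in mutant liver: igf2a, igf2b, igfals, both IGFBP2 genes, ghra and ghrb. Their levels were 3.26 to 7.96 times lower than in controls. The 2 IGFBP1 genes did not pass the test, and no IGF axis gene rose. Among all 17048 genes, 17.1% were called in this comparison, 10.4% lower and 6.72% higher (false discovery rate 0.05). The median log2 change was -2.03 over the 9 genes and 0.06 over all genes tested. Mutant and control libraries did not overlap for 7 of the 9 genes, against 14.1% of all genes.

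**Figure D1:**
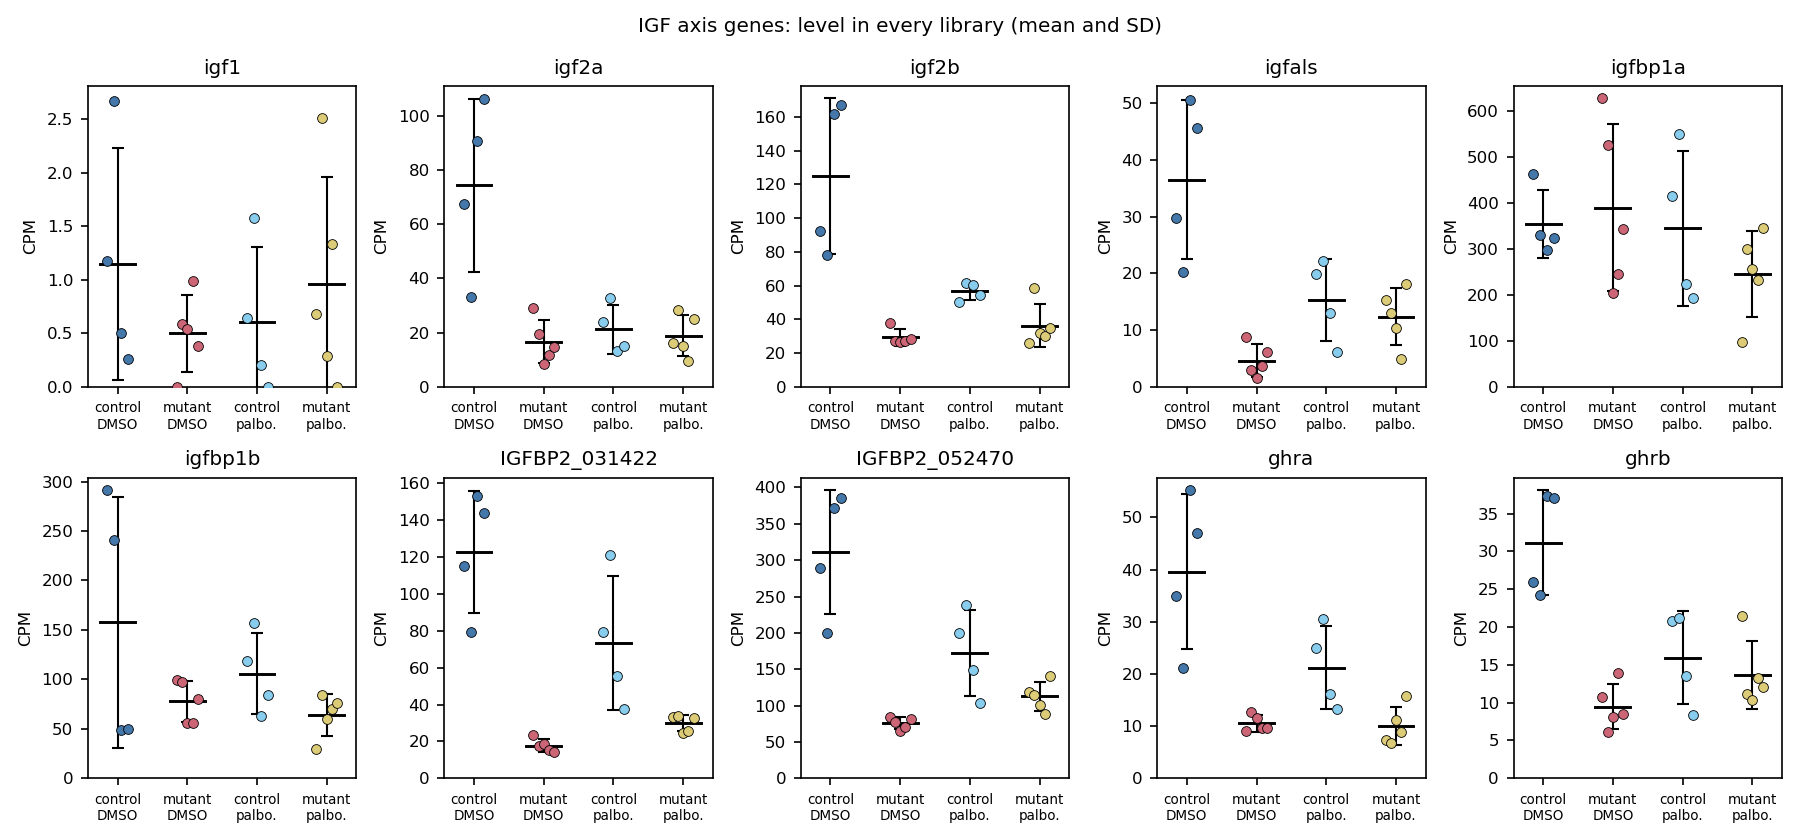
Level of the 10 IGF axis genes in each of the 18 libraries, in CPM on a linear axis from 0, one panel per gene, with the mean and SD of each group of 4 or 5 libraries. Igfals, igf2a, igf2b, both IGFBP2 genes and both receptors sit highest in DMSO controls and lower in the other 3 groups, whereas igfbp1a overlaps between all 4 groups (means of 353, 389, 344 and 245 CPM) and igf1 stays at or below 2.67 CPM.

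Among the ligands, igf2b, an insulin-like growth factor 2 gene, was measured at 92.7, 78.2, 162 and 167 CPM in the 4 DMSO controls. In the 5 DMSO mutants it was at 37.8, 27.3, 26.3, 27 and 28.1 CPM. The lowest control lay above the highest mutant, and igf2b fell by 2.09 on the log2 scale (SE 0.248, edgeR adjusted p = 1.29e-05). Its paralog igf2a (ENSDARG00000018643) had 67.4, 33, 90.8 and 106 CPM in controls and 29, 19.5, 8.39, 11.9 and 14.6 CPM in mutants. Here the gap between the groups was narrow, from 33 CPM in control replicate 2 to 29 CPM in mutant replicate 1. The log2 change of igf2a was -2.15 (SE 0.418, edgeR adjusted p = 0.00187).

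The third ligand, igf1 (ENSDARG00000094132), the main endocrine IGF of postnatal mammals, was close to the detection limit. Its counts were 5, 11, 2 and 1 in DMSO controls, 0, 2, 2, 4 and 1 in DMSO mutants, 3, 5, 1 and 0 in palbociclib controls, and 3, 9, 1, 4 and 0 in palbociclib mutants. That is 54 reads in all 18 libraries together. In the 3 libraries with no read, a count of 0 allows up to 0.81, 0.846 or 0.906 CPM (3 counts, counting error only). No difference in igf1 was detectable at this depth: when all genes were fitted without the filter, its log2 change in DMSO mutants was -1.13 (95% interval -2.98 to 0.71, edgeR adjusted p = 0.55).

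The largest estimated fold change of the axis in DMSO mutants belonged to igfals (ENSDARG00000037836), which encodes the acid-labile subunit. It was at 29.7, 20.2, 50.5 and 45.7 CPM in DMSO controls and at 8.74, 2.91, 1.62, 3.72 and 6.16 CPM in DMSO mutants. Every mutant library lay below every control library. The log2 change was -2.99 (SE 0.466, edgeR adjusted p = 0.000214), which is 7.96 times lower. The DMSO mutant values rest on only 31, 10, 6, 15 and 16 reads. The 95% interval of igfals, from -3.98 to -2, spans that of the next largest change, in an IGFBP2 gene (-3.41 to -2.15). Whether igfals fell more than that gene was not tested.

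Under the single symbol IGFBP2 there were 2 gene IDs (ENSDARG00000031422 and ENSDARG00000052470). Which is igfbp2a and which igfbp2b is not given in the files, so they are named IGFBP2_031422 and IGFBP2_052470. IGFBP2 is a binding protein that liver secretes in fetal and fasting states in mammals. IGFBP2_031422 was at 115, 79.6, 153 and 144 CPM in DMSO controls and at 23.4, 17.5, 18.7, 15.1 and 14.2 CPM in DMSO mutants. IGFBP2_052470 was at 289, 200, 372 and 385 CPM in DMSO controls and at 84.8, 77.7, 65.5, 71.2 and 81.2 CPM in DMSO mutants. Groups did not overlap for either gene. IGFBP2_031422 changed by -2.78 (SE 0.296, edgeR adjusted p = 7.15e-06) and IGFBP2_052470 by -2.03 on the log2 scale (SE 0.235, edgeR adjusted p = 1.8e-05).

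Neither IGFBP1 gene passed the test in DMSO, and whether they differ from the other members was not tested. igfbp1a, listed as IGFBP1 in the table (ENSDARG00000099351), was at 462, 330, 297 and 324 CPM in DMSO controls and at 627, 525, 204, 246 and 342 CPM in DMSO mutants. The mutant libraries covered a wider range than the controls on both sides. The log2 change was 0.14 with a 95% interval from -0.74 to 1.02 (edgeR adjusted p = 0.873), so changes of up to about that size in either direction were not resolved. igfbp1b (ENSDARG00000038666) was at 291, 241, 48.8 and 49.6 CPM in DMSO controls, which is a high pair and a low pair of libraries. In DMSO mutants it was at 98.9, 97.2, 56.3, 56.3 and 80.1 CPM, between the pairs. Its log2 change was -1.02 (95% interval -2.11 to 0.06, edgeR adjusted p = 0.208).

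Both growth hormone receptors fell. ghra was at 34.9, 21.1, 55.2 and 47 CPM in DMSO controls and at 9.02, 12.8, 11.6, 9.67 and 9.62 CPM in DMSO mutants. ghrb was at 26, 24.3, 37.3 and 37.1 CPM in DMSO controls and at 10.7, 6.11, 8.12, 13.9 and 8.47 CPM in DMSO mutants. For both receptors the groups were apart, with control replicate 2 the lowest control. The log2 changes were -1.9 for ghra (SE 0.267, edgeR adjusted p = 4.67e-06) and -1.7 for ghrb (SE 0.256, edgeR adjusted p = 3.78e-06).

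The hepatocyte marker share moved with these results, from a mean of 6% of counts in DMSO controls to 2.91% in DMSO mutants, and the muscle share from 2.75% to 4.24%. Of 25 tested hepatocyte markers 20 were called lower and 0 higher, with a median log2 change of -1.45. Of 20 tested muscle markers 17 were called higher and 0 lower, with a median of 0.29. Among all genes 10.4% were called lower and 6.72% higher. Leukocyte markers (11 IDs, all with counts) took between 0.00452% and 0.00688% of counts in DMSO controls and between 0.0128% and 0.0191% in DMSO mutants, without overlap. Biliary markers (12 IDs, all with counts) took between 0.145% and 0.164% in DMSO controls and between 0.231% and 0.279% in DMSO mutants, also without overlap. The leukocyte and biliary sums were not shared by the whole lists. Of 10 tested leukocyte markers 2 were called higher and 1 lower. Of 12 biliary markers 3 were called higher and 1 lower, with a median log2 change of 0.07. Stellate and fibroblast markers (16 IDs, all with counts) averaged 0.471% and 0.715%, and skin markers (13 IDs, all with counts) 0.549% and 0.819%, with overlapping ranges. Endothelial markers had 5 of 10 tested IDs called lower and 1 higher, with a median log2 change of -0.65. Erythrocyte markers (7 IDs, all with counts) took at most 0.0137% in DMSO controls and at least 0.0138% in DMSO mutants. Of 5 tested erythrocyte IDs 0 were called, with a median log2 change of 0.26. The part of these other cell types in the results was not tested. When libraries were scaled to the summed hepatocyte markers, the median change of all genes moved from 0.06 to 1.47. Of the 17048 genes, 14706 were called higher there and 163 lower. On that scale 5 IGF axis genes were still lower in mutants, in order of size igfals (-1.58), IGFBP2_031422 (-1.34), igf2a (-0.74), igf2b (-0.63) and IGFBP2_052470 (-0.58). ghra (-0.41, edgeR adjusted p = 0.179) and ghrb (-0.25, edgeR adjusted p = 0.445) no longer passed the test. igfbp1a was called higher on that scale, at 1.43 (edgeR adjusted p = 7.02e-06), close to the median of all genes. The adjusted p over all 17 alternatives ranged from 9.45e-10 to 0.179 for ghra, from 9.9e-10 to 0.445 for ghrb and from 7.02e-06 to 0.995 for igfbp1a. With the muscle share as a covariate, 6 of the 7 genes stayed lower, with log2 changes of -0.95 to -1.8, and igf2a at -0.61 did not pass (edgeR adjusted p = 0.0941).

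**Figure D2:**
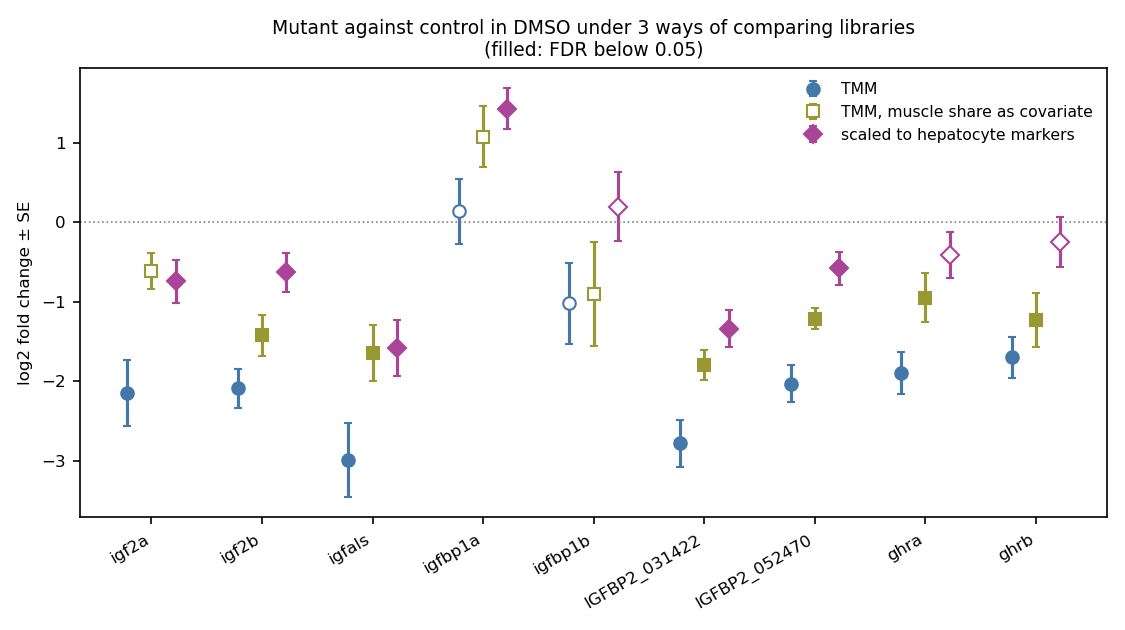
Log2 change of the 9 tested IGF axis genes in DMSO mutants against DMSO controls under the usual (TMM) scaling, under TMM with a muscle share term, and scaled to hepatocyte markers; error bars are SE and filled points passed a false discovery rate of 0.05. All 7 genes called with the usual scaling lie below 0 throughout. Of these, ghra and ghrb are not called relative to hepatocyte markers, nor igf2a with the muscle share term. igfbp1a lies near 0 with the usual scaling (0.14) and at 1.43 relative to hepatocyte markers.

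In palbociclib, mutant and control livers differed in fewer IGF axis genes: IGFBP2_031422 and ghra fell, and 7 of the 9 genes did not pass the test. Of all genes, 1.05% were called in this comparison, 0.416% lower and 0.634% higher. The median log2 change was -0.61 over the 9 genes and 0.03 over all genes. IGFBP2_031422 was at 79.3, 121, 55.6 and 37.5 CPM in palbociclib controls and at 33.5, 33.7, 24.8, 25.9 and 32.9 CPM in palbociclib mutants. It was the only one of the 9 genes whose groups did not overlap here, against 3.33% of all genes. Its log2 change was -1.27 (SE 0.285, edgeR adjusted p = 0.0454).

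ghra was at 24.9, 30.6, 16.1 and 13.2 CPM in palbociclib controls and at 7.3, 6.69, 11.1, 8.95 and 15.7 CPM in palbociclib mutants. Mutant replicate 5 lay above control replicate 5, so the groups overlapped. ghra changed by -1.09 on the log2 scale (SE 0.277, edgeR adjusted p = 0.0448). Both calls are close to the threshold. None of the 9 genes was called once control replicate 1 or 2 or mutant replicate 1, 3 or 4 of the palbociclib groups was left out. In those fits 96 to 249 of all genes were called, against 179 with every library. Only igf2b was called without mutant replicate 2 (121 of all genes), and only ghra without mutant replicate 5 (164 of all genes). The intervals of the others include no change or end near it: igf2b had a log2 change of -0.64 (95% interval -1.17 to -0.11, edgeR adjusted p = 0.366), and igfals -0.29 (95% interval -1.22 to 0.63, edgeR adjusted p = 0.938). For igfals the palbociclib libraries ran at 19.8, 22.1, 13.1 and 6.21 CPM in controls and 15.3, 13.1, 10.3, 4.97 and 18.1 CPM in mutants, with the groups interleaved.

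The next comparison asks what palbociclib did in control larvae. In control liver, palbociclib lowered 4 of the 9 genes, namely igf2a, igf2b, ghra and ghrb, and none rose. Of all genes, 5.71% were called in this comparison, 4.33% lower and 1.38% higher, and the median log2 change was -0.9 over the 9 genes against -0.02 over all genes. The groups did not overlap for 3 of the 9 genes, against 9.42% of all genes.

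igf2a was at 23.9, 32.8, 13.1 and 14.9 CPM in palbociclib controls, all below the lowest DMSO control at 33 CPM, though by a narrow margin. Its log2 change was -1.83 (SE 0.436, edgeR adjusted p = 0.0262), the largest of the 9 genes. igf2b was at 50.3, 61.6, 60.2 and 54.6 CPM in palbociclib controls, a tighter group than the DMSO controls. It changed by -1.14 (SE 0.253, edgeR adjusted p = 0.0159). ghrb was at 20.8, 21.2, 13.5 and 8.37 CPM, apart from the DMSO controls, with a log2 change of -0.97 (SE 0.259, edgeR adjusted p = 0.0211). ghra overlapped its DMSO controls and changed by -0.9 (SE 0.267, edgeR adjusted p = 0.0415).

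IGFBP2_052470, at 200, 239, 149 and 103 CPM in palbociclib controls, had a log2 change of -0.85 that missed the threshold (edgeR adjusted p = 0.0547). igfals had -1.26 (95% interval -2.18 to -0.33, edgeR adjusted p = 0.106). Neither IGFBP1 gene passed. igfbp1a was at 414, 549, 223 and 192 CPM in palbociclib controls with a log2 change of -0.04 (95% interval -0.97 to 0.89), and igfbp1b at 119, 157, 62.8 and 84.3 CPM with -0.58 (95% interval -1.72 to 0.56).

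These calls rest on few libraries. None of the 9 genes was called without DMSO control replicate 3 or 4 or without palbociclib control replicate 4 or 5. Calls among all genes fell as well, to 311, 272, 338 and 304 in that order, against 973 with every library. Of the 9 genes, 2 were called without palbociclib control replicate 1 (745 of all genes). There were 6 without DMSO control replicate 2 (2019 of all genes) and 6 without palbociclib control replicate 2 (1327 of all genes). Within the palbociclib controls, replicate 5 had the lowest hepatocyte share (3.02%) and the highest muscle share (4.86%), and it had the lowest level of ghra, ghrb, igfals and both IGFBP2 genes. The hepatocyte share averaged 4.14% in palbociclib controls against 6% in DMSO controls, and the muscle share 4.07% against 2.75%. Of 25 hepatocyte markers 7 were called lower and 0 higher in this comparison, and of 20 muscle markers 17 were called higher and 0 lower. With the muscle share as a covariate none of the 9 genes was called, where 58 of all genes were, so the 0 says little about them. Relative to hepatocyte markers, where the median change of all genes was 0.81, igf2a was still called lower (-1) and igfbp1a was called higher (0.63). Of all genes, 7800 were called higher there and 51 lower.

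In mutant liver, palbociclib changed none of the 9 genes past the threshold by edgeR's quasi-likelihood test, and DESeq2's Wald test called 0 as well. Among all genes 0.54% were called, 0.0411% higher and 0.499% lower. At an unadjusted p below 0.05 there were 4 of the 9 genes, all with higher values in palbociclib: igfals, both IGFBP2 genes and ghrb. Among all genes 8.81% were at that level and 3.4% were so with higher values. igfals went from 4.63 ± 2.83 CPM (SD, n = 5) in DMSO mutants to 12.3 ± 5.03 CPM (n = 5) in palbociclib mutants, a log2 change of 1.44 (95% interval 0.43 to 2.46, edgeR adjusted p = 0.318). Palbociclib mutant replicate 4, at 4.97 CPM, lay within the range of the DMSO mutants.

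IGFBP2_031422 went from 17.8 ± 3.6 to 30.2 ± 4.44 CPM (n = 5 each), with a log2 change of 0.76 (edgeR adjusted p = 0.456). IGFBP2_052470 was at 119, 114, 101, 88.2 and 141 CPM in palbociclib mutants, each above the highest DMSO mutant at 84.8 CPM, with a log2 change of 0.57 (edgeR adjusted p = 0.465). These 2 were the only genes of the 9 whose groups did not overlap in this comparison, against 2.29% of all genes. Under 3 alternatives igfals and both IGFBP2 genes were called higher: a fit of the mutant libraries alone, where 67 genes of the whole set were called higher, library size alone (36 genes) and the muscle covariate (231 genes). Under hepatocyte scaling the median of all genes was -0.45, with 474 genes called lower and 2 higher. There igfbp1a was called lower (-1.05, edgeR adjusted p = 0.00777). Its log2 change in the fit as reported was -0.67 (95% interval -1.5 to 0.17), and over 18 alternatives its adjusted p ranged from 0.00777 to 0.917. ghra stayed at 10.6 ± 1.6 CPM in DMSO mutants and 9.95 ± 3.64 CPM in palbociclib mutants (95% interval of the log2 change -0.67 to 0.48).

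Whether the mutant effect differed between treatments was tested directly as the interaction. It was positive and passed the threshold for 4 of the 9 genes, igfals, igf2b, ghrb and IGFBP2_052470, where 1.99% of all genes were called, 1.74% positive and 0.252% negative. A positive value means that the mutant deficit was smaller in palbociclib than in DMSO. The interaction was 2.7 on the log2 scale for igfals (SE 0.646, edgeR adjusted p = 0.0425), 1.49 for ghrb (SE 0.365, edgeR adjusted p = 0.0195), 1.45 for igf2b (SE 0.352, edgeR adjusted p = 0.0447) and 1.42 for IGFBP2_052470 (SE 0.33, edgeR adjusted p = 0.0405). Other values in the same direction did not pass: igf2a at 2.01 (edgeR adjusted p = 0.121), IGFBP2_031422 at 1.51 (edgeR adjusted p = 0.082) and ghra at 0.81 (edgeR adjusted p = 0.362). The median was 1.45 over the 9 genes and 0 over all genes.

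Both genotypes enter that value: for these 4 genes the mean in palbociclib was lower than in DMSO among controls and higher than in DMSO among mutants. For igf2b the 4 group means were 125, 29.3, 56.7 and 36.3 CPM (DMSO control, DMSO mutant, palbociclib control, palbociclib mutant), and for igfals 36.5, 4.63, 15.3 and 12.3 CPM. The count of 4 was not stable to single libraries. It was 0 without DMSO control replicate 3 or 4, DMSO mutant replicate 3 or palbociclib control replicate 4. Calls among all genes were then 172, 168, 219 and 188, against 340 with every library. It was 5 without palbociclib control replicate 2 (538 of all genes) and 6 without DMSO control replicate 2 (842 of all genes). Over its 25 alternatives the interaction of igfals passed in 9, that of igf2b in 10, that of IGFBP2_052470 in 8 and that of ghrb in 15, and none of these 4 changed sign. Relative to hepatocyte markers, where the median interaction of all genes was -1.28, igfals was still called positive (1.52) and igfbp1a was called negative (-1.68). Of all genes, 14 were called positive there and 10554 negative.

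**Figure D3:**
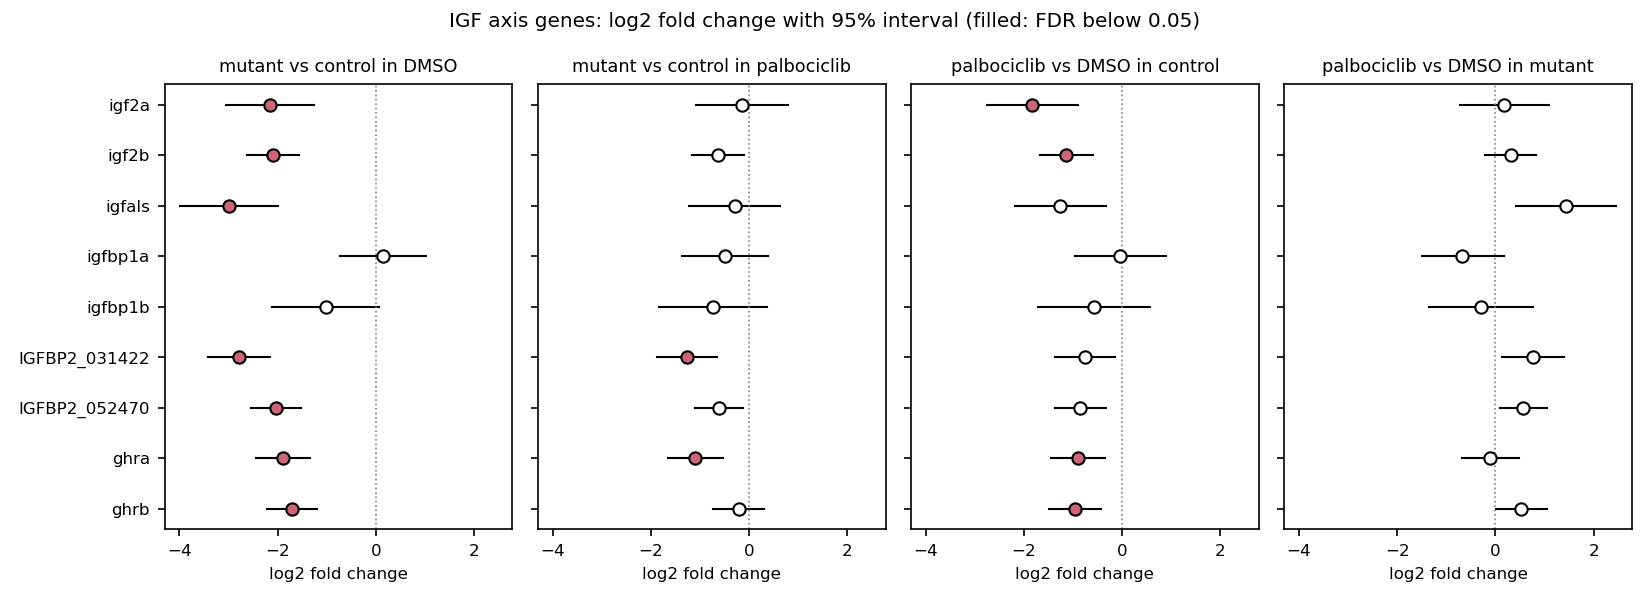
Log2 change of the 9 tested IGF axis genes in the 4 pairwise comparisons of genotype and treatment, with 95% intervals; filled points passed a false discovery rate of 0.05. Among mutants against controls 7 genes lie between -1.7 and -2.99 in DMSO and 2 were called in palbociclib, palbociclib lowered 4 genes in controls, and no point is filled for palbociclib in mutants.

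Mutant livers in palbociclib remained below control livers in DMSO for all 7 genes. In this comparison 7 of the 9 genes were called lower, where 16.6% of all genes were called, 10.3% lower and 6.23% higher. The log2 changes ran from -1.18 for ghrb to -2.02 for IGFBP2_031422, and igfals was at -1.55 (edgeR adjusted p = 0.0169). The 7 genes did not overlap between the groups, against 13.5% of all genes. Leaving out any single library gave 7 calls, but without DMSO control replicate 3 or 4 igfals was no longer called and igfbp1b was. Over 17 alternatives igfals was called in 12. With the muscle share as a covariate 3 calls were left and the igfals value turned to 0.1. This comparison shares its control libraries with the DMSO comparison and its mutant libraries with the palbociclib comparison, so the 3 are not independent.

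Levels within a gene's paralog pair were then compared as log2 ratios in each library, which cancels a factor common to both. Ratios between genes were not read as relative abundance, since transcript lengths were not available. For IGFBP2_031422 over IGFBP2_052470 the log2 ratio lay between -1.41 and -1.28 in DMSO controls and between -2.47 and -1.78 in DMSO mutants. In palbociclib it lay between -1.44 and -0.98 in controls and between -2.09 and -1.74 in mutants. Mutant libraries were thus below control libraries without overlap in both treatments. The difference in means was -0.75 in DMSO and -0.59 in palbociclib. All ratio pairs were picked after the levels had been seen, so these values are a description. Exact two-sided permutation tests were run for 16 ratio comparisons, and none passed 0.05 after adjustment (lowest adjusted p = 0.0635). For the IGFBP2 pair, mutants against controls had a permutation p of 0.00794 in each treatment, the smallest that these group sizes allow. That floor left little room to pass over 16 tests, so the tests decide nothing and support nothing further.

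The log2 ratio of ghra to ghrb averaged 0.28 in DMSO controls, 0.19 in DMSO mutants, 0.41 in palbociclib controls and -0.45 in palbociclib mutants. The log2 ratio of igf2a to igf2b averaged -0.79 in DMSO controls, -0.9 in DMSO mutants, -1.49 in palbociclib controls and -0.97 in palbociclib mutants. The log2 ratio of igfbp1a to igfals averaged 3.32 in DMSO controls and 6.3 in DMSO mutants, with 4.46 in palbociclib controls and 4.25 in palbociclib mutants.

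**Figure D4:**
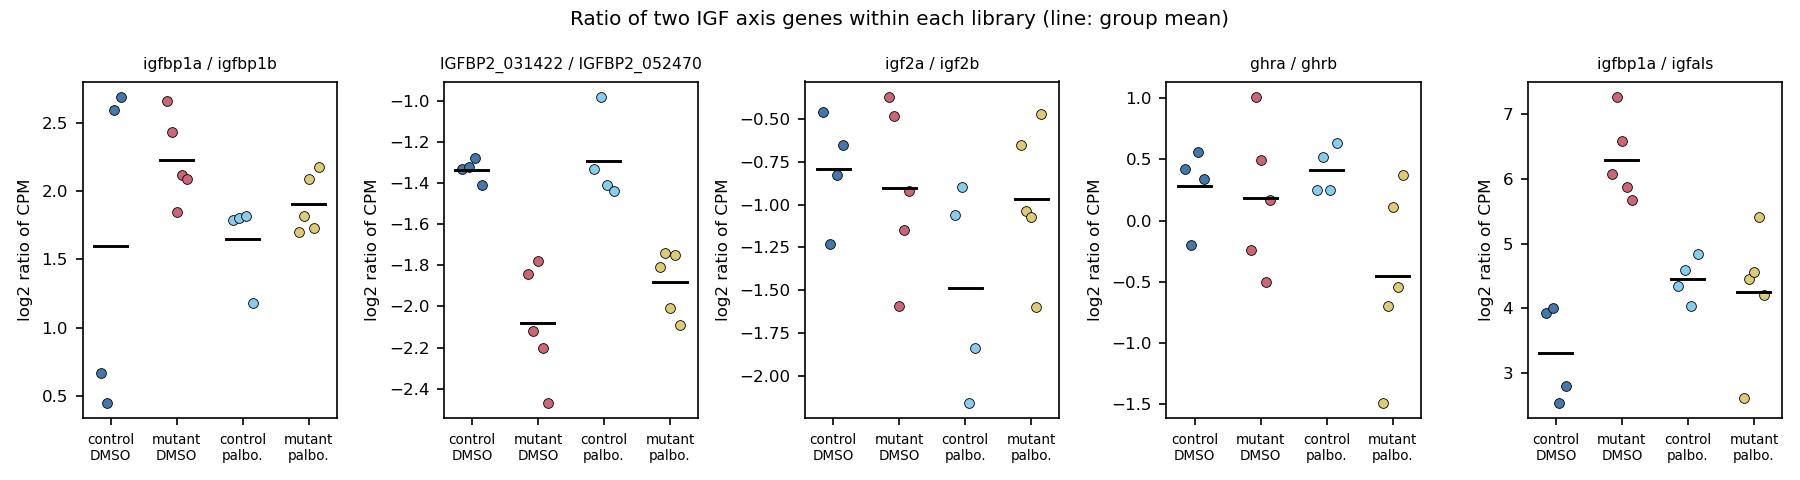
Log2 ratio of paralog pairs, and of igfbp1a to igfals, in each of the 18 libraries with the mean of each group. For the IGFBP2 pair every mutant library lies at or below -1.74 and every control library at or above -1.44, in both treatments.

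Genes with a profile most like that of igfals over the 18 libraries were sought among 9775 genes, by the root mean square (RMS) difference of centred log2 CPM. The nearest were COMTD1 (RMS 0.439), itih3a.1 (RMS 0.449), CPB2 (RMS 0.495), ebi3 (RMS 0.511) and ces2a (RMS 0.515), where igfals itself had an SD of 1.23. itih3a.1 encodes an inter-alpha-trypsin inhibitor heavy chain and CPB2 a plasma carboxypeptidase, both secreted by hepatocytes, and ces2a a carboxylesterase. COMTD1, for example, averaged 89.6 CPM in DMSO controls, 9.66 CPM in DMSO mutants, 44 CPM in palbociclib controls and 28.7 CPM in palbociclib mutants. Its order of groups is that of igfals, which picking by likeness favours, so it is no separate result. Of the axis, igf2a was at rank 71 (RMS 0.65), ghrb at rank 135, igf2b at rank 163 and ghra at rank 324, and igfbp1a at rank 4940 (RMS 1.28). The IGFBP2 genes, unranked because they share a symbol, stood at RMS 0.56 (IGFBP2_052470) and 0.579 (IGFBP2_031422).

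For igfbp1a the nearest genes were ODC1 (RMS 0.388), nr2f5 (RMS 0.422), cryzl1 (RMS 0.423), HDAC4 (RMS 0.425) and ARG2 (RMS 0.426), where igfbp1a had an SD of 0.627. ODC1 encodes ornithine decarboxylase and ARG2 an arginase. The paralog igfbp1b was at rank 989 (RMS 0.596). The distance of igfbp1b is close to the spread of igfbp1a itself, so that likeness is weak. The 5 nearest genes stood below that spread, at 0.388 to 0.426, and their likeness is limited.

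Upstream of the ligands, growth hormone signalling was read from 12 tested genes beyond the receptors. In DMSO mutants 3 fell, stat5a, CISH and JAK2, and 9 did not pass, with a median log2 change of -0.13. Among all genes 10.4% were called lower in this comparison and 6.72% higher, which is the background for this and the other pathway lists. stat5a, a STAT5 transcription factor gene, went from 74.7 ± 13 CPM (SD, n = 4) to 20.7 ± 3.76 CPM (n = 5). Its log2 change was -1.85 (edgeR adjusted p = 2.25e-10), and relative to hepatocyte markers it was -0.44 and did not pass. CISH, a STAT5-induced feedback inhibitor, went from 28 ± 7.81 CPM (n = 4) to 8.39 ± 5 CPM (n = 5), a log2 change of -1.76 (edgeR adjusted p = 0.00134) and of -0.37, not called, relative to hepatocyte markers. JAK2, a gene of the receptor's kinase, changed by -0.58 (edgeR adjusted p = 0.0162). It did not pass with library size alone (-0.2, edgeR adjusted p = 0.388) and was at 0.87 relative to hepatocyte markers. That scale moves all genes alike, to a median of 1.47. Setting a value against that median closely restates the result of the usual scaling. For these and the pathway genes below it therefore adds no separate support. SOCS2, another STAT5 target, was at 7.41 ± 1.24 CPM (n = 4) and 5.68 ± 3.25 CPM (n = 5) and did not pass (edgeR adjusted p = 0.492). The paralogs of JAK2 and stat5a did not pass either. For jak2a, at 30 ± 3.64 CPM (n = 4) and 33.9 ± 6.98 CPM (n = 5), the log2 change was 0.17 (edgeR adjusted p = 0.53). For stat5b it was -0.57 (edgeR adjusted p = 0.113).

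In palbociclib the same signalling genes had 0 of 12 called, where 1.05% of all genes were called, so the 0 says little about them. stat5a was at 35.4 ± 10.5 CPM in palbociclib controls (n = 4) and 25.4 ± 5.1 CPM in palbociclib mutants (n = 5). Palbociclib lowered stat5a in controls, with a log2 change of -1.08 (edgeR adjusted p = 0.00028), and the interaction was 1.38 (edgeR adjusted p = 0.00145). Relative to hepatocyte markers these values were -0.29 and 0.16, where the medians of all genes were 0.81 and -1.28, and neither passed.

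Downstream, of 18 tested receptors and adaptors of IGF and insulin, 3 fell in DMSO mutants and 15 did not pass, with a median of -0.16, a count near the 17.1% called among all genes. INSR_011948, an insulin receptor gene, went from 102 ± 4.47 CPM (n = 4) to 58 ± 3.66 CPM (n = 5), a log2 change of -0.82 (edgeR adjusted p = 6.71e-07). Relative to hepatocyte markers it was called higher in mutants (0.6, edgeR adjusted p = 0.0162), where the median of all genes was 1.47. The other insulin receptor gene, INSR_071524, changed by -1 (edgeR adjusted p = 6.7e-05) and was at 0.39 on that scale. GRB10_002013, an adaptor that dampens insulin receptor signalling, changed by -1.32 (edgeR adjusted p = 9.89e-06), or by 0.07, not called, relative to hepatocyte markers. GRB10_035308, listed under the same symbol, did not pass (0.23, edgeR adjusted p = 0.796). The IGF type 1 receptor genes did not pass: IGF1R_027423 had -0.22 (edgeR adjusted p = 0.574) and IGF1R_034434 0.37 (edgeR adjusted p = 0.346).

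Among 15 tested genes of other IGF binding proteins and of proteins that regulate IGF availability or IGF2 mRNA, 3 fell and 1 rose in DMSO mutants, with a median of 0.13 (all genes, 10.4% lower and 6.72% higher). The 3 were the IGF2 mRNA binding protein genes igf2bp1 (-0.75, edgeR adjusted p = 5.73e-06), IGF2BP3 (-1.23, edgeR adjusted p = 0.000147) and IGF2BP2 (-0.55, edgeR adjusted p = 0.0322). Relative to hepatocyte markers, where the median of all genes was 1.47, the direction turned. On that scale igf2bp1 (0.72, edgeR adjusted p = 0.00373) and IGF2BP2 (0.85, edgeR adjusted p = 0.00411) were called higher in mutants. IGF2BP3 (0.26, edgeR adjusted p = 0.266) did not pass. With library size alone IGF2BP2 did not pass either (-0.19, edgeR adjusted p = 0.45). igf2bp2b, a further gene of this family, did not pass in the fit as reported (0.2, edgeR adjusted p = 0.55). IGFBP5_025348, a binding protein gene, rose by 0.43 (edgeR adjusted p = 0.0413), with overlapping groups. It was also called with library size alone (0.77) and relative to hepatocyte markers (1.78), where the medians of all genes were 0.42 and 1.47. It was not called with DESeq2 size factors (0.41, edgeR adjusted p = 0.0515), without the filter (edgeR adjusted p = 0.0557), by DESeq2's Wald test (adjusted p = 0.0542) or with the muscle covariate (edgeR adjusted p = 0.182). IGFBP5_039264, the other ID listed as IGFBP5, did not pass (-0.01, edgeR adjusted p = 0.995). IGFBP3, whose product is the main carrier of IGF in mammalian blood, was at 12.7 ± 3.08 CPM (n = 4) and 16.7 ± 2.25 CPM (n = 5) and did not pass (edgeR adjusted p = 0.325).

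Of 40 tested genes of PI3K, AKT, FoxO and mTOR signalling, 11 fell and 1 rose in DMSO mutants, with a median of -0.17 (all genes, 10.4% lower and 6.72% higher). eif4ebp3, a translation repressor of the mTOR pathway, changed by -1.28 (edgeR adjusted p = 7.2e-08) and was at 0.13 relative to hepatocyte markers, where the median of all genes was 1.47. AKT2, the main hepatic AKT kinase in mammals, changed by -0.78 (edgeR adjusted p = 2.04e-06) and was at 0.65 on that scale. Other tested IDs under these names, listed as akt2 and EIF4EBP3, belong to the same list, and their values are not given here. rheb, the small GTPase that activates mTOR complex 1, rose by 0.91 (edgeR adjusted p = 0.0225). In palbociclib none of the receptor and adaptor, binding protein and regulator, or PI3K lists held a called mutant effect (0 of 18, 0 of 15 and 0 of 40). With 1.05% of all genes called there, these counts are near the background.

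Other secreted hepatocyte proteins gave the closest frame for the axis, since its ligands and carriers are themselves liver products. Of 38 such genes, 27 fell and 2 rose in DMSO mutants, with a median of -1.54 (all genes, 10.4% lower, 6.72% higher and a median of 0.06). ahsg1, a fetuin gene, had the smallest adjusted p among those that fell, with a log2 change of -2.86 (edgeR adjusted p = 2.05e-16). The rising genes were the apolipoprotein genes apoeb (0.34) and apoa1a (0.3). In palbociclib 1 of the 38 fell in mutants (0.416% of all genes), and the interaction was called positive for 10 of the 38 (1.74% of all genes). In controls palbociclib lowered 12 of the 38 and raised 2 (4.33% and 1.38% of all genes). In mutants it raised 2, ahsg1 (0.76) and F7_075827 (0.82), and lowered 0 (0.0411% and 0.499% of all genes). Relative to hepatocyte markers the median of the 38 in DMSO was -0.12, against -0.58 for the 9 IGF axis genes, and with the muscle share as a covariate it was -0.75, against -1.21. The list shares 18 IDs with the 25 hepatocyte markers, so its value on that scale is in part a comparison with itself. The difference between the lists was not tested.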

How the data were processed

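The authors deposited a read count per gene ID for each of 18 libraries, made from total RNA after removal of ribosomal RNA. Per the submitters' processing notes, FastQC 0.11.5 and Trimmomatic 0.36 were used. For the aligner, counter, strandedness, build and annotation the sources used here give nothing, so overlapping or antisense genes could not be told apart, and reads shared by close paralogs may have been split between them. No 2 libraries were identical (0 pairs).

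Symbols came from a reference table (26269 of 32105 IDs). filterByExpr (minimum count 10) kept 17048 genes with 99.56% of counts and removed 15057. Counts were scaled by TMM (factors 0.762 to 1.16) and fitted with a mean per group in edgeR 4.0.16 (robust quasi-likelihood, R 4.3.3). The fit was also run on simulated counts with few genes changed, unlike these data. That run is no support for the calls reported here. The call threshold was 0.05 on p-values adjusted by Benjamini-Hochberg over all tested genes. The common biological coefficient of variation was 0.218. Depth was 2467926 to 5199301 counts, and intervals are 95%. Log2 ratios used a pseudocount of 0.5, profile likeness a pseudocount of 2 and a mean of at least 5 CPM.

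The named genes were the 10 members, and the 5 genes most like igfals, igf1 and igfbp1a, where igf1, below the filter, got none. To these came genes from the 2 called with the smallest adjusted p per direction of each pathway list and pairwise comparison. Not all genes that this rule picked are printed here. A few other pathway genes (JAK2, jak2a, stat5b, SOCS2, INSR_071524, GRB10_035308, IGF2BP2, igf2bp2b, IGFBP3, IGFBP5_039264 and both IGF1R genes) were named after their values were seen. The members and lists were chosen with earlier results of these data known, and all ratio pairs after the data were seen. Alternatives were other scalings, no filter, DESeq2 1.42.0, fits of the compared groups alone, a replicate block, a muscle covariate and leaving out each library. Sequences and gene coordinates were not used here.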

Additional observations from a re-analysis of the deposited data

Results flagged for a closer look

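Of 40 gene and group combinations of the IGF axis examined for a library far from the others of its group (Dixon's test), 3 had one, where chance alone gives about 5%. ghrb stood at 21.4 CPM in palbociclib mutant replicate 1, with the next library at 13.3 CPM. igf2b stood at 37.8 CPM in DMSO mutant replicate 1, with the next at 28.1 CPM, and at 58.5 CPM in palbociclib mutant replicate 2, with the next at 35 CPM. The mutant effect differed between treatments, by the interaction test, for igfals (2.7 on the log2 scale), ghrb (1.49), igf2b (1.45) and IGFBP2_052470 (1.42). The hepatocyte marker share rose and fell with the group levels of these 4 genes, at means of 6%, 2.91%, 4.14% and 3.9% of counts in DMSO controls, DMSO mutants, palbociclib controls and palbociclib mutants. With the muscle share as a covariate 3 of the 9 genes had a called interaction, 2 of them among these 4.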

How the results depend on the processing

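The fall of 7 IGF axis genes in DMSO mutants was called under every alternative except hepatocyte marker scaling (5 lower and 1 higher) and the muscle covariate (6), and leaving out any library left 7 to 7. The other counts moved more. Library size alone gave 3 genes for palbociclib in mutants (141 of all genes). It gave 3 for palbociclib in controls (1472 of all genes), 2 of the 4 reported, with ghra and ghrb lost. For the interaction it gave 4 (391 of all genes), 3 of the 4 reported, with ghrb lost. Hepatocyte scaling gave 1 for mutant against control in palbociclib, 2 for palbociclib in controls and 1 for palbociclib in mutants (igfbp1a, lower). It gave 2 for the interaction and 4 for palbociclib mutants against DMSO controls. Calls among all genes under it were 193, 7851, 476, 10568 and 11411 in that order. No filter gave 1 for mutant against control in palbociclib (250 of all genes) and 1 for the interaction (387 of all genes). Fits of the compared groups alone gave 1, 1 and 3 for mutant against control in palbociclib, palbociclib in controls and palbociclib in mutants. Calls among all genes in these fits were 180, 351 and 181 in that order. Such fits could give no interaction. The muscle covariate gave 3 for mutant against control in palbociclib, 3 for the interaction (2 of the 4 reported) and 0 for palbociclib in controls. It gave 3 for palbociclib in mutants and 3 for palbociclib mutants against DMSO controls. Calls among all genes under it were 451, 245, 58, 379 and 536 in that order. DESeq2's Wald test gave 7, 2, 6, 0, 6 and 7 genes over the 6 comparisons. Its calls among all genes were 3019, 336, 1298, 164, 615 and 2988. The fit as reported called 2917, 179, 973, 92, 340 and 2825 of all genes in the same order. Leaving out a library gave 0 to 2 for mutant against control in palbociclib, 0 to 6 for palbociclib in controls, 0 to 6 for the interaction, 0 to 0 for palbociclib in mutants and 7 to 7 for palbociclib mutants against DMSO controls, of which 6 were among the 7 reported genes without DMSO control replicate 3 or 4 (igfals lost, igfbp1b gained). The cause of these moves was not tested.

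Same-numbered libraries did not vary together: the correlation of their deviations ran from -0.534 to 0.229 over 16 pairs, and 3 of 32 library comparisons were highest with the library's own number. With the replicate block, 7 genes were called in DMSO and 6 for palbociclib mutants against DMSO controls. There were 0 for mutant against control in palbociclib, palbociclib in controls, palbociclib in mutants and the interaction. Among all genes the block left 111, 264, 59 and 134 calls in these comparisons, against 179, 973, 92 and 340 without it.

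Some log2 changes of the 9 IGF axis genes turned sign, all of them uncalled in the fit as reported except igfals in palbociclib mutants against DMSO controls, which became 0.1 with the muscle covariate. Under hepatocyte scaling these were igfbp1b in DMSO (0.2), ghrb (0.05) and igf2a (0.04) for mutant against control in palbociclib, igfbp1b (0.02) and igfbp1a (0.63) for palbociclib in controls, igf2a (-0.22) and igf2b (-0.14) for palbociclib in mutants, igfbp1b (-0.73) and ghra (-0.46) for the interaction, and igfbp1a (0.38) for palbociclib mutants against DMSO controls. Under the muscle covariate they were igf2a (0.31) and igfals (0.16) for mutant against control in palbociclib, IGFBP2_031422 (0.04) and igfbp1a (0.77) for palbociclib in controls, ghra (0.02) for palbociclib in mutants, and igfbp1a (0.65) for palbociclib mutants against DMSO controls. Library size alone gave 0.16 for igfbp1a with palbociclib in controls. Leaving out 1 library gave -0.35 to 0.16 there, -0.1 to 0.32 for igfbp1a in DMSO, -0.34 to 0.12 for igf2a for mutant against control in palbociclib, -0.32 to 0.02 for ghra and -0.01 to 0.49 for igf2a with palbociclib in mutants, and -0.19 to 0.59 for the interaction of igfbp1b. Depth limits igf1, whose 54 reads in all leave wide intervals, such as a log2 change of -2.98 to 0.71 for mutants in DMSO.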

Other observations

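Genes of stress and fasting programmes that are known to act on IGFBP1 genes were read from 3 lists. Of 21 tested genes of the integrated stress response, 9 rose and 3 fell in DMSO mutants (median log2 change 0.5, edgeR's quasi-likelihood test). The serine synthesis genes PSAT1 (1.39, from 12.3 ± 3.11 CPM, n = 4, to 32.3 ± 12.9 CPM, n = 5, edgeR adjusted p = 3.2e-05) and PHGDH (1, edgeR adjusted p = 2.48e-05) rose. SHMT2, a mitochondrial enzyme of serine breakdown, changed by -1.06 (edgeR adjusted p = 2.58e-08). Relative to hepatocyte markers it was at 0.32, where the median of all genes was 1.47. CHAC1 also fell (-0.71, edgeR adjusted p = 0.0295). The median of the list was 0.84 with library size alone and 1.82 relative to hepatocyte markers, where the medians of all genes were 0.42 and 1.47, against 0.06 in the fit as reported. Among all genes 6.72% rose and 10.4% fell.

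Of 28 tested hypoxia-inducible genes, 4 rose and 7 fell (median 0.03). PFKFB3, an activator of glycolysis, went from 8.73 ± 2.22 CPM (n = 4) to 33 ± 10.9 CPM (n = 5), a log2 change of 1.91 (edgeR adjusted p = 8.62e-07), and palbociclib lowered it in mutants (-1.06, edgeR adjusted p = 0.018). EPAS1_008697, a gene of the hypoxia factor HIF2 alpha, changed by -1.32 in DMSO mutants (edgeR adjusted p = 1.23e-09) and was at 0.14 relative to hepatocyte markers, against 1.47 for the median of all genes. Of 22 tested fasting and FoxO target genes, none rose and 11 fell (median -0.6). Relative to hepatocyte markers the median was 0.83, where the median of all genes was 1.47. PDK4, a fasting-induced kinase that blocks pyruvate oxidation, changed by -1.2 (edgeR adjusted p = 2.19e-06) and was at 0.27 on that scale. In palbociclib mutants against palbociclib controls, 0 of 21, 1 of 28 and 0 of 22 genes of the 3 lists were called, where 1.05% of all genes were.

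igfbp1b split the DMSO controls into 291 and 241 CPM in replicates 1 and 2 and 48.8 and 49.6 CPM in replicates 3 and 4, while igfbp1a in the same libraries was at 462, 330, 297 and 324 CPM. Replicates 1 and 2 also held the lower hepatocyte shares (6.08% and 5.09%, against 6.29% and 6.55%) and the higher muscle shares (2.75% and 3.73%, against 2.32% and 2.18%). The part of these shares in the split was not tested.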
